A study of Rattus norvegicus with 8 samples.

Results

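The IL-6 family receptors and their route to STAT3 were followed across mature hepatocytes (MHs), small hepatocyte-like progenitor cells (SHPCs) of control livers, and SHPCs of livers that had received bone marrow mesenchymal cells (BM-MCs). The members were 10 genes, Il6, Il6r, Il6st, Osmr, Lifr, Il1r1, Jak1, Jak2, Stat3 and Socs3, taken by their names in the array annotation from 27110 named genes. They were measured by 19 of the 45598 probes on the array, printed as 28 spots, and 15 of these probes, for 8 of the 10 genes, were bright enough to be tested. The 8 samples came from female F344 rats that had all received retrorsine (Ret), a plant toxin used to hold back the growth of resident hepatocytes, at 30 mg/kg, followed by 70% partial hepatectomy (PH). There were 2 samples of MHs and 3 samples of SHPC clusters, the latter from control recipient livers. A further 3 samples of SHPC clusters came from livers given cultured BM-MCs of male F344 rats through the spleen. The titles of the MH samples do not say whether their livers had received BM-MCs. The paper's discussion of the array clustering names MHs beside SHPCs from transplanted livers. Whether transplantation bears on the comparisons with MHs was not tested. Cells were cut from frozen sections by laser microdissection (LMD), and the livers of the study were examined 14 days after transplantation. The strain is given as DPPIV+ in the labels and the recipients as DPPIV-negative in the methods, no source used here gives the age of these recipients, and nothing ties a sample to an animal, so p-values measure the spread between these samples, which may be technical.

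IL-6 is the founding ligand of a cytokine family whose members share the signal chain gp130, encoded by Il6st. IL-6 binds its own receptor chain, encoded by Il6r, on hepatocytes or as a shed soluble form, and the complex engages gp130, whereas oncostatin M and leukaemia inhibitory factor pair gp130 with the chains encoded by Osmr and Lifr. The kinases JAK1 and JAK2 then phosphorylate STAT3, which enters the nucleus and switches on acute-phase and growth genes and Socs3, the feedback inhibitor that silences gp130. In the liver this route drives the acute-phase response and takes part in regeneration after PH, and IL-1, acting through the receptor encoded by Il1r1, works beside it. The study asked whether cytokines bear on the growth of SHPC clusters, and the array data answer how these genes stood in the captured cells. RNA was the quantity measured, and phosphorylation of STAT3 was not.

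Each gene was read by 60-base probes, and 5 of them are printed 5′ to 3′, to show the bases read by the probes that the results below come back to. Positions are those of the array annotation (rat build rn4). The first was the only probe of Il6, at chr4:457279-458563 on the reverse strand, which joins exons. The second was the brighter probe of Osmr, at chr2:56080710-56080769 on the reverse strand. The third was the second probe of Il6st, at chr2:43833273-43833332 on the forward strand. The fourth was an exon-joining probe of Il1r1, at chr9:39462421-39464677 on the forward strand. The fifth was the second probe of Socs3, at chr10:107958636-107958695 on the reverse strand. Each of the first 4 has 1 reading frame without a stop codon, and the Socs3 probe has 1 frame that ends at a stop codon, in capitals.
Il6: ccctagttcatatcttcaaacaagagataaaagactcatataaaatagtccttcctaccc
Osmr: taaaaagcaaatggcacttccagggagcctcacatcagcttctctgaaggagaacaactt
Il6st: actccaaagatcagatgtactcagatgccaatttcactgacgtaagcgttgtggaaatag
Il1r1: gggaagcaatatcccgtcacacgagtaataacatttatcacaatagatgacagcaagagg
Socs3: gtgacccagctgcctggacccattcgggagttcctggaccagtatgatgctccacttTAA
The brightest tested probes of the other genes lay at chr2:182078323-182078382 (Il6r), chr2:56477054-56477113 (Lifr), chr5:121804146-121804205 (Jak1), chr1:232974483-232974542 (Jak2) and chr10:89821145-89821204 (Stat3). Those of Il6st, Il1r1 and Socs3 lay at chr2:43838549-43838608, chr9:39475309-39475368 and chr10:107957211-107957270.

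All levels below are log2 signals relative to the 75th percentile of the same array, so 0 is a bright probe and 1 unit is a 2-fold difference, and levels are compared between samples for 1 probe, never between probes. Between 57.05% and 61.5% of spots were well above background. The 8 arrays lay on 1 slide in 2 sets of 4. The first set held both MH samples with replicates 1 and 2 of the control SHPCs, and the second held their replicate 3 with all samples given BM-MCs. All 7 hepatocyte markers were above background in the captured cells. All 8 Kupffer cell and macrophage markers were also above background, and their summed signal, in multiples of the 75th percentile, was 86.1 to 92.9 in MHs, 44.7 to 64.8 in control SHPCs and 55.9 to 80.2 in SHPCs with BM-MCs. The summed signal of 4 sinusoidal endothelial markers was 11.4 to 14, 10.2 to 12 and 12.2 to 13.3 in the same order, and that of 7 stellate cell and fibroblast markers was 4.77 to 4.83, 4.21 to 4.88 and 4.31 to 6.76. That of 5 biliary markers was 0.275 to 0.354, 0.405 to 0.443 and 0.417 to 0.534. Of the 5 neutrophil markers Csf3r, Cxcr2 and Mpo were dim on all 7 arrays with complete background marks, and the sum was 0.384 to 1.45, 1.12 to 1.51 and 0.362 to 0.475. Of the lymphocyte markers Cd3e and Ms4a1 were dim on these arrays, and the sum was 0.0872 to 0.134, 0.159 to 0.186 and 0.0976 to 0.148. These other cells also use IL-6 family and IL-1 receptors, their part in the results below was not tested, and in captured tissue fewer cells of a type cannot be told apart from less RNA per cell.

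Il6, the ligand, was not well above background on any array with a mark for its probe. Its processed signal lay between 4.33 and 6.18 units, where the 75th percentile of the arrays lay between 1253.9 and 1742 units. The less bright Osmr probe, equally dim, lay between 4.41 and 6.15 units and, relative to the 75th percentile, followed the same order over the arrays, so neither series of values ranks the groups. Il6r, the chain that binds IL-6, gave a steady signal. It read 0.35 and 0.64 in MHs, 0.58, 0.48 and 0.31 in control SHPCs, and 0.38, 0.32 and 0.35 in SHPCs with BM-MCs. The 3 groups overlapped, and the 3 samples with BM-MCs lay within 0.06 of each other. The paper measured Il6r in captured cells by qRT-PCR and reported a tendency to higher levels with BM-MCs that was not significant. Its discussion lists Il6r among the genes that rose significantly in these SHPCs. A second Il6r probe, on another transcript model, was well above background in MH replicate 1 only.

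Il6st, which encodes the shared chain gp130, was bright on its first probe. It read 2.93 and 2.96 in MHs, 2.56, 2.45 and 2.59 in control SHPCs, and 2.90, 2.91 and 2.71 in SHPCs with BM-MCs. Every control SHPC sample lay below every sample of the other groups, and both MH samples lay above the samples with BM-MCs. On the second probe, the one printed above, it read -1.16 and -1.27 in MHs, -1.42, -1.82 and -1.51 in control SHPCs, and -1.29, -0.88 and -1.26 in SHPCs with BM-MCs. Control SHPCs were again the lowest group, with no overlap with either other group, whereas MHs and SHPCs with BM-MCs overlapped on this probe.

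Osmr, the oncostatin M receptor chain, was near the detection limit. Its brighter probe was well above background in 1 of 2 MH samples, 1 of 3 control SHPC samples and none of the 3 samples with BM-MCs. The readings were -6.73 and -5.56 in MHs, -6.80, -7.67 and -4.47 in control SHPCs, and -7.84, -7.62 and -6.78 in SHPCs with BM-MCs. MH replicate 2 and control SHPC replicate 3 were the detected samples, and the mean of the control SHPCs was carried by that replicate. The arrays with BM-MCs were set at the lowest signal of a probe well above background, and the readings of the other groups were kept. The fold of MHs or of control SHPCs over SHPCs with BM-MCs then fell below 1, so no fold is given.

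Lifr, the leukaemia inhibitory factor receptor chain, differed more within MHs and within SHPCs with BM-MCs than between the group means. Its brightest probe read -1.89 and -3.50 in MHs, -3.002, -2.93 and -2.79 in control SHPCs, and -1.95, -2.79 and -3.34 in SHPCs with BM-MCs. MH replicate 1 and BM-MC replicate 1 were high, and the other 6 samples lay between -3.50 and -2.79. The other 2 probes placed the same 2 samples highest, at -3.02 and -2.74 on one and at -3.70 and -3.41 on the other. The MH samples differed by 1.62, 1.21 and 1.34 on the 3 probes, and 1.06%, 2.40% and 1.77% of all tested probes differed by as much. The samples with BM-MCs spanned 1.39, 1.80 and 1.60, and 4.16%, 2.22% and 2.94% of all tested probes spanned as much. The control SHPCs lay close together, spanning 0.21, 0.36 and 0.34, and 70.6%, 45.4% and 47.3% of all tested probes spanned as much.

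**Figure D1:**
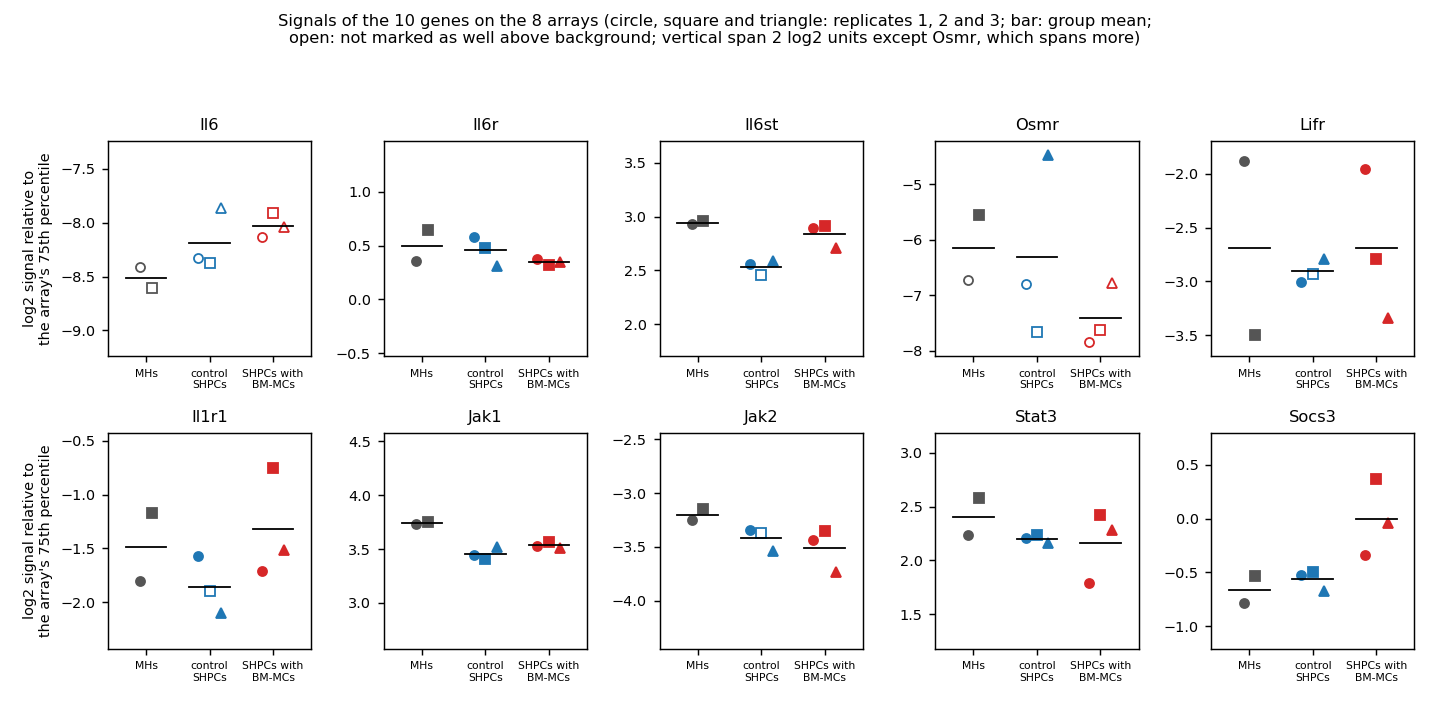
Each panel shows 1 gene in the 3 groups, as the log2 signal relative to the array's 75th percentile for the gene's brightest tested probe (for Il6 and Osmr, the brighter probe, which was not tested). Points are samples, bars are group means, and open points lack a mark of a signal well above background, also where control SHPC replicate 2 has no mark. Control SHPCs are the lowest group for Il6st, at 2.45 to 2.59, all samples with BM-MCs lie above both other groups for Socs3, and single samples stand apart for Osmr and Lifr.

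Il1r1, the signalling receptor for IL-1, was read by 3 probes. The brightest read -1.81 and -1.17 in MHs, -1.57, -1.90 and -2.10 in control SHPCs, and -1.71, -0.76 and -1.51 in SHPCs with BM-MCs. BM-MC replicate 2 was the highest sample on every Il1r1 probe and control SHPC replicate 3 the lowest. On the exon-joining probe printed above, the values were -2.76 and -2.04 in MHs, -2.60, -2.84 and -3.16 in control SHPCs, and -2.21, -1.996 and -2.59 in SHPCs with BM-MCs. There the samples with BM-MCs did not overlap with control SHPCs, the nearest samples being at -2.59 and -2.60, whereas on the other 2 probes the groups overlapped.

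Of the 2 kinases, Jak1 differed little between samples. Jak1 read 3.73 and 3.75 in MHs, 3.45, 3.404 and 3.52 in control SHPCs, and 3.53, 3.56 and 3.51 in SHPCs with BM-MCs. MHs were above all SHPC samples on this probe, but on the second Jak1 probe the 3 groups overlapped, with means of -0.78 ± 0.11 (SD, n = 2), -0.75 ± 0.12 (SD, n = 3) and -0.71 ± 0.09 (SD, n = 3). Jak2 read -3.25 and -3.15 in MHs, -3.34, -3.37 and -3.53 in control SHPCs, and -3.44, -3.36 and -3.74 in SHPCs with BM-MCs. Both MH samples were above all SHPC samples, and the SHPC groups overlapped. Stat3, the transcription factor itself, read 2.24 and 2.58 in MHs, 2.20, 2.24 and 2.16 in control SHPCs, and 1.79, 2.42 and 2.28 in SHPCs with BM-MCs. Its 3 groups overlapped, and BM-MC replicate 1 was the lowest of the 8 samples.

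Socs3, the feedback inhibitor, was the 1 tested member whose brightest probe was higher in every sample with BM-MCs than in all 5 other samples. Its 10-spot probe read -0.79 and -0.54 in MHs, -0.53, -0.50 and -0.67 in control SHPCs, and -0.34, 0.37 and -0.04 in SHPCs with BM-MCs. The samples with BM-MCs lay above all others on this probe and spanned 0.71 among themselves, and the SD between the spots of 1 array was 0.037 to 0.14. The probe at the stop codon read -4.03 and -3.74 in MHs, -3.66, -3.55 and -3.25 in control SHPCs, and -3.55, -2.94 and -3.21 in SHPCs with BM-MCs. On that probe MHs were the lowest group, and control SHPCs overlapped with SHPCs with BM-MCs. BM-MC replicate 2 was highest on both Socs3 probes.

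With BM-MCs against controls, 0 of the 8 tested members passed limma's moderated test with Benjamini-Hochberg adjustment over the 23111 tested probes at an adjusted p under 0.05, against 0.0216% of all tested probes and 0.0275% of tested genes with 1 probe each. In limma's unadjusted test 2 members, Socs3 and Il6st, had a p under 0.05, both higher with BM-MCs, where 10.3% of all tested genes were higher at that level. The same 2 members were higher without overlap between the groups, against 13% of tested probes, and 0 were lower without overlap, against 11.6%. Socs3 was 1.48-fold higher, a log2 difference of 0.56 (95% interval 0.10 to 1.03, adjusted p = 0.25 from limma), and 0.26 (95% interval -0.22 to 0.73) on its second probe. Il6st differed by 0.31 (95% interval 0.04 to 0.58, adjusted p = 0.27 from limma) and on its second probe by 0.44 (95% interval 0.03 to 0.85, adjusted p = 0.28 from limma). The Il1r1 probes differed by 0.53 to 0.63 (adjusted p from 0.26 to 0.45 from limma). Within the second set of arrays, which holds 1 control sample, the differences were 0.67 for Socs3, 0.25 for Il6st and 0.78 for Il1r1. Without BM-MC replicate 2 those of Socs3 and Il1r1 were 0.38 and 0.25.

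The members without a difference at that level had intervals that bound it. Il6r was lower by 0.11 on average (95% interval -0.38 to 0.17), Stat3 differed by -0.04 (95% interval -0.48 to 0.40), Jak2 by -0.09 (95% interval -0.43 to 0.25) and Jak1 by 0.08 (95% interval -0.16 to 0.32). A 2-fold difference in these 4 genes therefore lay outside the intervals, whereas for Lifr, at 0.21 (95% interval -0.60 to 1.03), and for Il1r1, at 0.53 (95% interval -0.14 to 1.203), it did not. The median over the 8 members was 0.14, beside 0.03 over all 14536 tested genes. Scaling arrays to their median in place of their 75th percentile lowered every difference in this comparison by 0.19, which put Socs3 at 0.37, Il6st at 0.12 and Jak1 at -0.12 with the median of all probes at -0.17.

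Between MHs and control SHPCs, 0 of the 8 tested members passed, against 1.13% of all tested probes and 1.22% of tested genes. In limma's unadjusted test 2 members, Il6st and Jak1, had a p under 0.05, both higher in MHs, where 12.5% of all tested genes were higher at that level. In 3 members, Il6st, Jak1 and Jak2, both MH samples lay above all control SHPCs, against 22.7% of tested probes, and in 0 below them, against 18.7%. Il6st was 1.33-fold higher in MHs, with a log2 difference of 0.41 (95% interval 0.13 to 0.69, adjusted p = 0.15 from limma), the lowest adjusted p of any member in the 3 comparisons. It was 0.37 on the second probe and 0.44 within the first set of arrays. Jak1 differed by 0.28 (95% interval 0.03 to 0.53, adjusted p = 0.22 from limma), and its second probe by -0.03 (95% interval -0.33 to 0.27). The Il6r difference was 0.04 (95% interval -0.28 to 0.36), that of Stat3 0.20 (95% interval -0.27 to 0.68) and that of Socs3 -0.10 (95% interval -0.58 to 0.39). The median over the members was 0.22, beside 0.06 over all tested genes.

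Between SHPCs with BM-MCs and MHs, 0 of the 8 tested members passed, against 0.338% of all tested probes and 0.406% of tested genes. The 1 member under an unadjusted p of 0.05 in limma was Socs3, higher in SHPCs with BM-MCs, where 6.8% of all tested genes were higher at that level. Socs3 was also the 1 member higher without overlap, against 16% of tested probes, and 3 members, Il6st, Jak1 and Jak2, were lower without overlap, against 16.3%. It differed by 0.66 on its first probe (95% interval 0.17 to 1.148, adjusted p = 0.30 from limma) and by 0.65 on its second (95% interval 0.15 to 1.16, adjusted p = 0.31 from limma). Il6st differed by -0.11 (95% interval -0.38 to 0.17), Il6r by -0.15 (95% interval -0.47 to 0.18) and Stat3 by -0.25 (95% interval -0.72 to 0.23). No set of arrays held both groups, so the slide position and this comparison cannot be told apart except through the control SHPCs. The comparison shares its samples with the other 2, and Il6st and Socs3 may be read side by side. Il6st was at 2.94 ± 0.02 (SD, n = 2) in MHs, 2.53 ± 0.07 (SD, n = 3) in control SHPCs and 2.84 ± 0.11 (SD, n = 3) with BM-MCs, whereas Socs3 was at -0.66 ± 0.17 (SD, n = 2), -0.57 ± 0.09 (SD, n = 3) and 0.00 ± 0.35 (SD, n = 3).

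**Figure D2:**
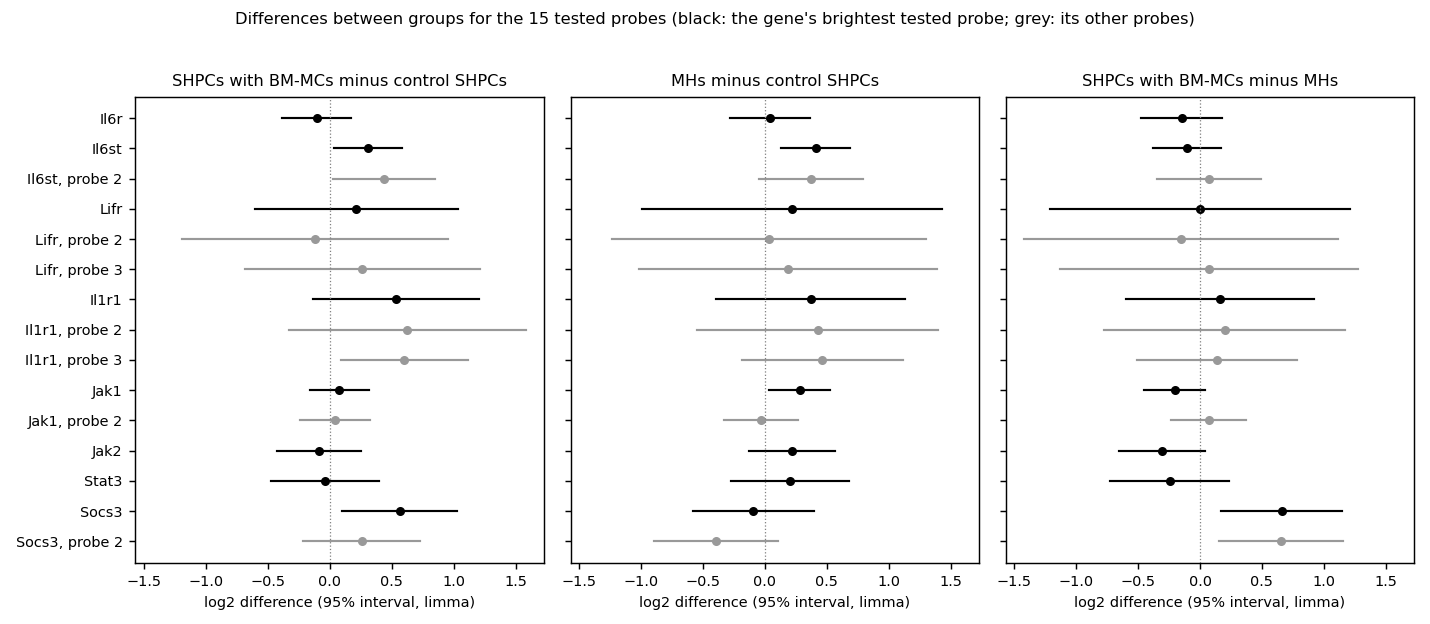
Points are the log2 differences of the 15 tested member probes in the 3 comparisons, and lines are limma's 95% intervals, in black for the gene's brightest tested probe and in grey for its other probes. No probe passed the adjusted threshold. The widest intervals belong to Lifr, and Socs3 lies at 0.56 and 0.66 in the 2 comparisons that involve SHPCs with BM-MCs.

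**Figure D3:**
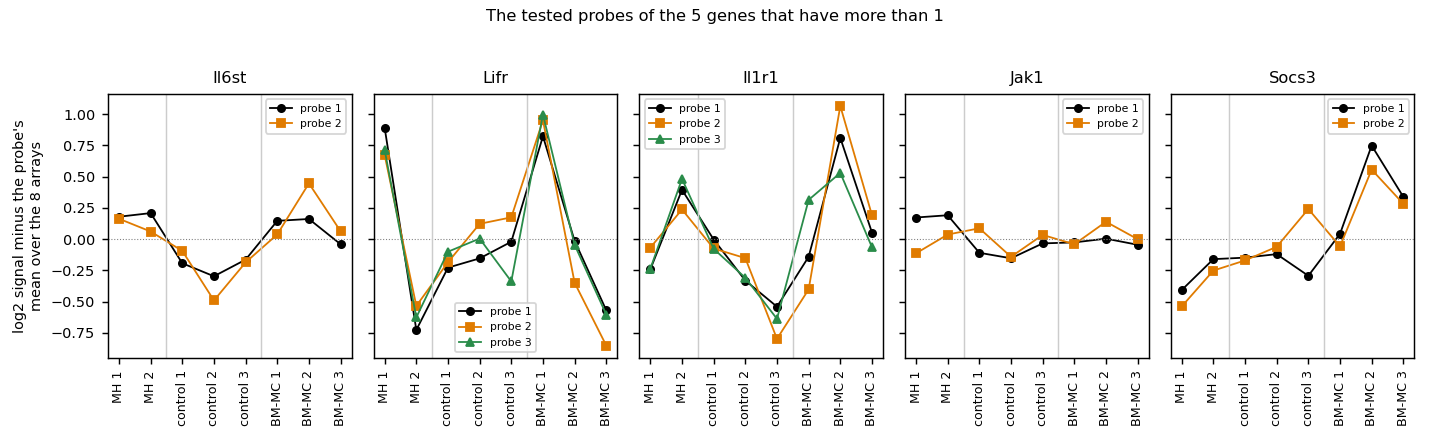
Lines follow the tested probes of Il6st, Lifr, Il1r1, Jak1 and Socs3 over the 8 samples, each as the log2 signal minus the probe's own mean. The 3 Lifr probes peak together in MH replicate 1 and BM-MC replicate 1, the 3 Il1r1 probes peak in BM-MC replicate 2, and the 2 Socs3 probes differ most in control SHPC replicate 3.

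The rest of the IL-6 family and JAK-STAT pathway was described by a list of 44 genes, of which 33 were tested. Of the 10 other ligands 6 were tested. Of the 4 other receptor chains only Il11ra1 was tested. None of the list passed with BM-MCs against controls or with MHs against controls, where limma's unadjusted test gave a p under 0.05 for 5 and 10 genes, against 16.2% and 20.3% of all tested genes. With BM-MCs against MHs 1 inhibitor, Cish, passed, where 0.406% of all tested genes did. The median difference of the list was 0.09, 0.19 and -0.03 in these comparisons, beside 0.03, 0.06 and -0.02 over all tested genes. The 5 tested STAT genes lay between -0.11 and 0.28 with BM-MCs against controls, with Stat5b lowest and Stat6 highest, and the kinases Tyk2 and Jak3 were at -0.06 and 0.24. The 2 proteases that shed IL-6 receptors, Adam10 and Adam17, were at -0.40 and 0.04. The 12 tested inhibitors spread furthest, from -0.51 for Socs6 to 1.44 for Socs2.

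Cish and Socs2 encode inhibitors of the same family as Socs3, which act mostly on receptors that signal through STAT5. Cish read -4.18 and -3.75 in MHs, -3.59, -3.69 and -3.62 in control SHPCs, and -2.37, -2.44 and -1.89 in SHPCs with BM-MCs. The samples with BM-MCs were more than 1 unit above every other sample, and the control SHPCs lay within 0.11 of each other. Cish rose 3.32-fold against MHs, by 1.73 (95% interval 1.26 to 2.21, adjusted p = 0.026 from limma), and was 2.64-fold higher than in control SHPCs, by 1.402 (95% interval 0.99 to 1.81, adjusted p = 0.070 from limma). Within the second set of arrays the latter difference was 1.39. The call against MHs was lost without MH replicate 1 or 2, control SHPC replicate 1 or 2, or BM-MC replicate 2, with differences from 1.52 to 1.94 and adjusted p from 0.060 to 0.21 from limma. Over the 21 alternatives run, its adjusted p lay between 0.014 and 0.48 and was under 0.05 in 9, with a difference of 1.14 under normexp and quantile normalization together on the 7 arrays with complete files. Socs2 read -3.62 and -3.80 in MHs, -3.95, -4.55 and -5.29 in control SHPCs, and -2.88, -3.47 and -3.12 in SHPCs with BM-MCs. It too was highest in the samples with BM-MCs, with no overlap, but control SHPC replicate 3 was not well above background, and its difference of 1.44 from controls did not pass (adjusted p = 0.17 from limma). That difference was 0.75 with normexp background correction and quantile normalization together on the 7 arrays with complete files, which leaves out control SHPC replicate 2. No difference is given within the second set of arrays, whose 1 control sample is the dim one.

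The 250 bases before the annotated start of Cish are printed because they hold 4 matches to the STAT motif TTCNNNGAA, in capitals. They are chr8:116850719-116850968 on the forward strand of GRCr8 in RefSeq, 5′ to 3′.
Cish: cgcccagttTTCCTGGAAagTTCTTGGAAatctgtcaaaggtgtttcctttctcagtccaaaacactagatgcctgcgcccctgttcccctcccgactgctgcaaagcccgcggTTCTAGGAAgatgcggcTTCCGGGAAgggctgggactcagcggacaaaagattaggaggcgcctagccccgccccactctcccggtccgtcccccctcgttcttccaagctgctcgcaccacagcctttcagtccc
The motif reads the same on both strands, and the matches begin 241, 230, 136 and 119 bases before the start. Of 33469 such windows in the RefSeq table, 7.67% held at least 1 match, 0.418% at least 2 and 2 windows at least 4. None of the windows of the 9 members in it held a match, Jak1 not being in it, and the Socs3 window ends at its coding start, since the start listed there lies next to it. Not every gene of the lists had a window, and of the genes named here Socs2, Socs5, Ccnd1, Myc and A2m had none. In the IL-6 family and JAK-STAT list 2 of 30 windows held a match, or 6.67%, that of Cish included, and in the IL-1 list 2 of 14, or 14.3%. The STAT3 target genes had 34 windows for 29 genes, and 26.5% of these windows held a match, those of Hamp, Fga, Fgb, Steap4, Serpina3n, Icam1 and Itih4 and 2 of Bcl2l1. A match is a run of letters and says nothing of binding.

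The list of 16 IL-1 genes had 15 tested, and 0 passed in any comparison, where 0.0275%, 1.22% and 0.406% of all tested genes did with BM-MCs against controls, MHs against controls and BM-MCs against MHs. In limma's unadjusted test 3, 3 and 2 of them had a p under 0.05, against 16.2%, 20.3% and 13.5% of all tested genes. Il1a, which encodes the ligand IL-1 alpha, had the lowest p of the list with BM-MCs against controls. It read -0.35 and -0.05 in MHs, -0.39, -0.20 and -0.32 in control SHPCs, and 0.36, 0.28 and 0.09 in SHPCs with BM-MCs. The samples with BM-MCs lay above all others, by 0.55 on average against controls (95% interval 0.26 to 0.84, adjusted p = 0.15 from limma). Myd88 and Traf6, which carry the signal onward from the receptor, differed by 0.29 and -0.25 in the same comparison.

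The list of 40 STAT3 target genes had 38 tested, and 0 passed in any comparison, beside the shares of 0.0275%, 1.22% and 0.406% of all tested genes given above. In limma's unadjusted test 5, 7 and 7 of them had a p under 0.05 with BM-MCs against controls, MHs against controls and BM-MCs against MHs, against 16.2%, 20.3% and 13.5% of all tested genes. With BM-MCs against controls 19 were higher and 19 lower, with a median of 0.00. The acute-phase genes among them, mostly plasma proteins that hepatocytes secrete on IL-6, numbered 18. Against controls 6 were higher and 12 lower with BM-MCs, with a median of -0.10 and a range from -1.42 for A2m to 0.30 for Lbp, while the 20 tested nuclear and growth targets had a median of 0.11 and ranged from -0.91 for Bcl6 to 0.93 for Myc. MHs against controls gave 11 acute-phase genes higher and 7 lower, with a median of 0.05.

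A2m, alpha-2-macroglobulin, the classic acute-phase protein of the rat, spanned the widest range. It read -4.04 and -2.27 in MHs, 0.89, 1.06 and -0.22 in control SHPCs, and -2.30, -0.62 and 0.42 in SHPCs with BM-MCs. MHs and control SHPCs did not overlap, and the samples with BM-MCs spread over 2.72, from within the MH range to within the control range, whereas on a second probe they lay above both MH samples. The difference of MHs from control SHPCs was -3.74 (95% interval -5.72 to -1.76, adjusted p = 0.10 from limma) and -3.76 on the second probe (adjusted p = 0.087 from limma). On the first probe it was -2.85 without MH replicate 1, -4.62 without MH replicate 2 and -3.03 with normexp and quantile normalization together on 7 arrays. Bcl6, a transcriptional repressor, read 0.44 and -0.15 in MHs, -0.06, -0.11 and -0.98 in control SHPCs, and -1.13, -1.23 and -1.51 in SHPCs with BM-MCs. It was lowest in the samples with BM-MCs, by 1.44 against MHs (log2 difference -1.44, adjusted p = 0.18 from limma), and control SHPC replicate 3 lay nearer to them than to the other controls, so that the difference was -0.54 when the slide set was a block.

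Of the nuclear and growth targets 0 passed in any comparison, and the 3 with low unadjusted p that are named next are not a sample of the rest. Ccnd1, cyclin D1, which drives entry into S phase, read 3.41 and 3.01 in MHs, 2.32, 2.42 and 2.32 in control SHPCs, and 2.91, 2.63 and 2.40 in SHPCs with BM-MCs. MHs were above every SHPC sample, by 0.86 on average against controls (95% interval 0.42 to 1.29, adjusted p = 0.092 from limma). Myc, the growth transcription factor, read -0.75 and -0.34 in MHs, -0.60, -0.71 and -0.92 in control SHPCs, and 0.62, -0.22 and 0.17 in SHPCs with BM-MCs. The samples with BM-MCs lay above all others, by 0.93 against controls (adjusted p = 0.17 from limma), and the nearest MH sample was 0.12 below them. Vegfa, the endothelial growth factor, was likewise above all others with BM-MCs, at 1.94 to 2.34 against 1.05 to 1.76 in control SHPCs and 1.02 and 1.41 in MHs, but on another of its 3 tested probes the samples with BM-MCs overlapped with control SHPCs, at a difference of 0.57 (95% interval -0.02 to 1.16) beside 0.88 on the first. The difference of 0.98 from MHs on the first probe (adjusted p = 0.23 from limma) was 0.33 with the slide set as a block.

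Of the 12 pathway genes named by their call or by the lowest unadjusted p, 4 remain. Gab1, an adaptor downstream of gp130, was lowest in control SHPCs, at -0.86 to -0.63, against -0.28 and -0.18 in MHs and -0.47 to -0.25 with BM-MCs, without overlap. Its difference between MHs and control SHPCs was 0.51 (adjusted p = 0.13 from limma). Steap4, a metalloreductase induced in inflammation, read 2.57 in both MH samples, 1.85 to 2.11 in control SHPCs and 1.91 to 2.37 with BM-MCs, and MHs were above all SHPC samples, by 0.61 against controls (adjusted p = 0.14 from limma). Socs5, another inhibitor of the family, read -0.82 and -0.61 in MHs, -1.22 to -0.96 in control SHPCs and -1.27 to -1.17 with BM-MCs, the last being 0.51 below MHs (log2 difference -0.51, adjusted p = 0.24 from limma). Over the alternatives run, that Socs5 difference lay between -0.71 and -0.29. Cntf, the ciliary neurotrophic factor of the IL-6 family, was near the dim end at -4.20 and -3.68 in MHs, -3.53 to -3.40 in control SHPCs and -3.44 to -3.21 with BM-MCs. Its difference between the last group and MHs was 0.62 (adjusted p = 0.26 from limma) and lay between 0.27 and 0.88 over the alternatives run.

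**Figure D4:**
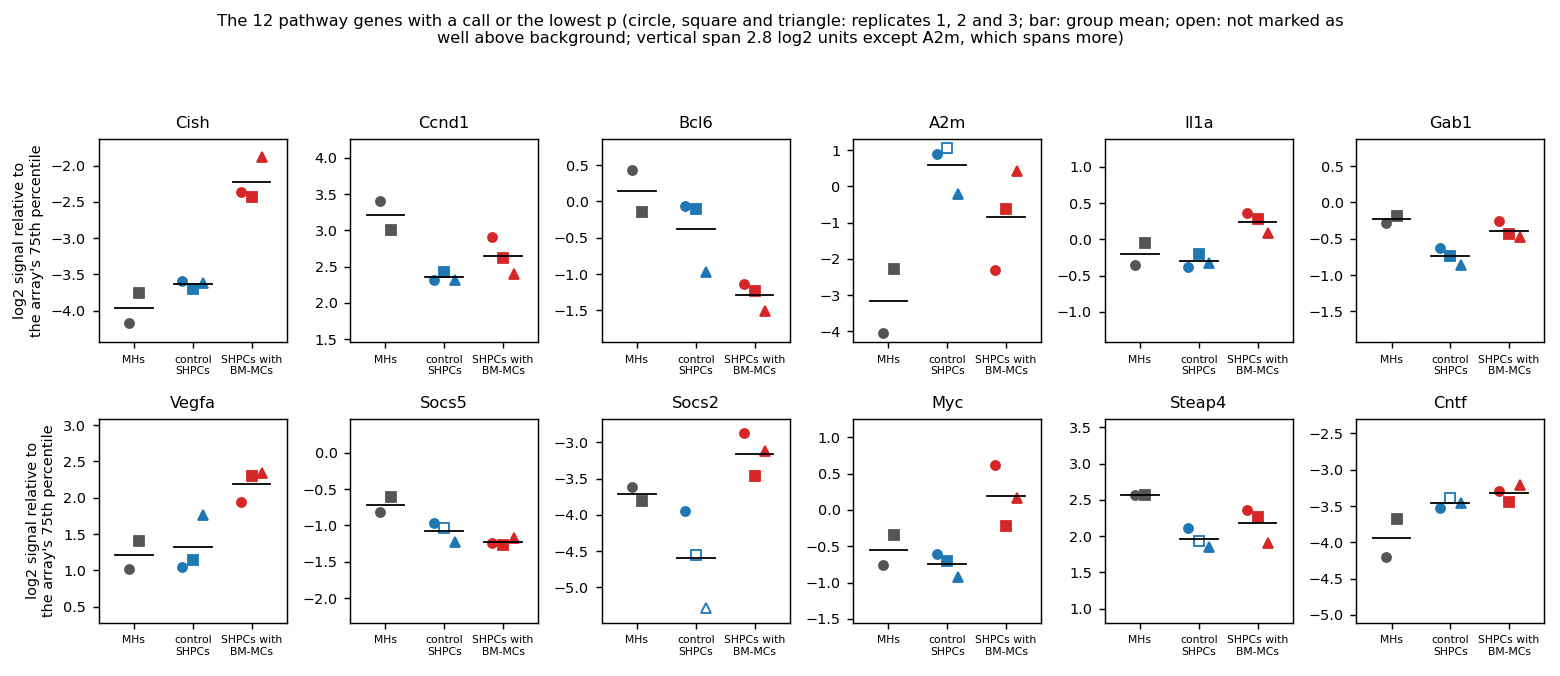
Panels show the 12 pathway genes in the 3 groups as log2 signals relative to the array's 75th percentile, with points for samples, bars for group means and open points where a sample has no mark of a signal well above background. Cish stands apart in SHPCs with BM-MCs, at -2.44 to -1.89, and A2m spreads most within MHs and within SHPCs with BM-MCs.

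**Figure D5:**
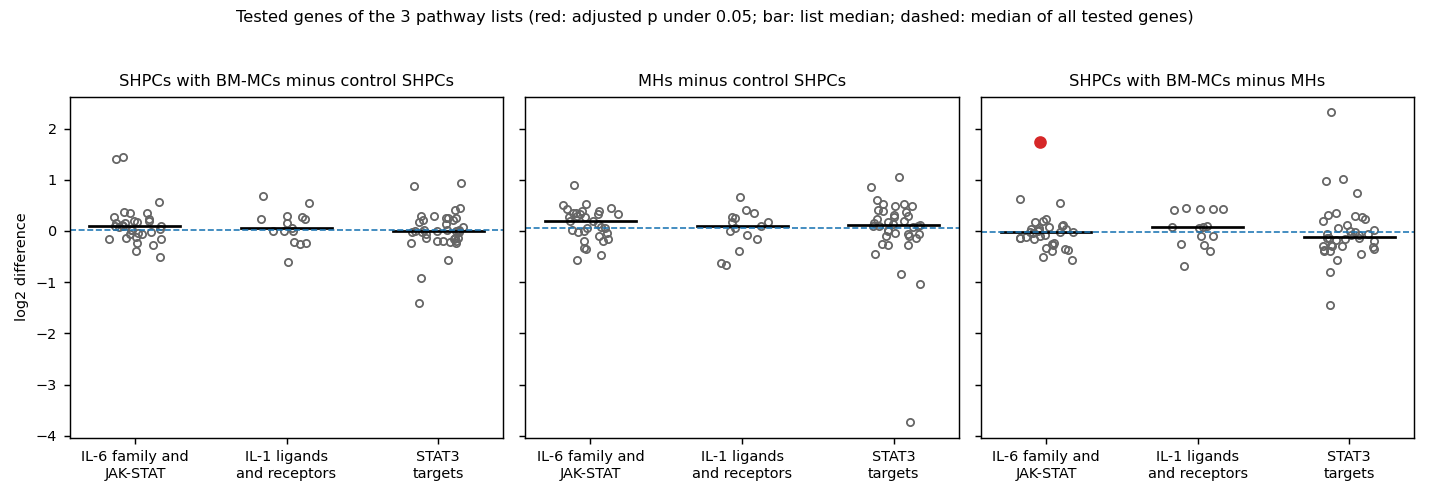
Each point is a tested gene of the 3 lists, placed by its log2 difference in the comparison named above the panel. Bars are list medians and the dashed line is the median of all tested genes. Cish, at 1.73 against MHs, is the filled point past the adjusted threshold, and the list medians lie between -0.11 and 0.19.

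The genes with the pattern most like that of a member over the 8 arrays were found among 14442 other tested genes by Pearson's r of the log2 signals. For Il6r they were Polr3g, Trmt6 and Snapc3 (r = 0.97, 0.96 and 0.95). For Stat3 they were LOC102555670, LOC100362031 and LOC100363500 (r = 0.93 for each), and for Socs3 Cbfa2t2, Mecom and Esrrg (r = 0.96, 0.96 and 0.95). These are the highest of all correlations computed, over 8 samples that share 1 slide, and no p is given. Osmr had no tested probe.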

How the data were processed

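The authors deposited 1-colour Agilent scanner files (Feature Extraction 10.7, per the file headers) and a value table with the same processed signal, an intensity already corrected for background and not scaled between arrays. One scanner file, that of replicate 2 of the control SHPCs, ends early (20903 of 62976 features), so all signals came from the table and background marks from the other 7 arrays. The log2 signal minus the array's 75th percentile was used, outlier spots were left out, spots of 1 probe were averaged, and probes marked above background on 3 or more of those 7 arrays entered limma 3.58.1 (R 4.3.3), with Benjamini-Hochberg adjustment over 23111 probes. SHPCs with BM-MCs and control SHPCs were fitted alone, and both comparisons with MHs in 1 fit of all 8 samples. A gene is given by its brightest tested probe. Pathway genes were named where called, and then by the lowest unadjusted p until 12 were named. The members and lists were chosen with earlier results of these data known. Scripts were tested on simulated data. The number of arrays limits the precision. Alternatives were the scaling, background correction, filters, blocks, the methods' t-test and leaving out samples.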

Additional observations from a re-analysis of the deposited data

How the results depend on the processing

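No member passed the adjusted threshold under any alternative that adjusted p-values. By the methods' t-test without adjustment 1 of 8 members had a p under 0.05 with BM-MCs against controls, 2 with MHs against controls and 1 with BM-MCs against MHs, and of the 86 pathway genes 10, 14 and 6, beside 15.2%, 18.3% and 9.77% of all tested genes. Of 813 log2 differences recomputed, 778 kept their direction and their side of the threshold, and 21 changed sign, all of them of members. The pathway count against MHs, 1 (Cish), was 0 with quantile normalization, with normexp and quantile normalization on 7 arrays, with no filter, with a replicate block, with a slide-set block, with only 2 groups in the fit, with the methods' t-test after adjustment, and from 0 to 1 with each sample left out. With BM-MCs against controls that count was 1 with no scaling and from 0 to 3 with each sample left out, 3 being without control SHPC replicate 3. Same-numbered samples shared only a number (correlations of deviations 0.13, 0.08 and 0.17), and with the replicate block Cish was at 1.64 against MHs (adjusted p = 0.10 from limma). Differences that changed sign with BM-MCs against controls were Jak1 (-0.12 with median scaling), Stat3 (0.048 with quantile normalization, 0.085 with normexp and quantile normalization on 7 arrays), Jak2 (0.025) and Il6r (0.038) with a slide-set block, and, with a sample left out, Lifr (from -0.157 to 0.538), Stat3 (from -0.17 to 0.147) and Jak2 (from -0.169 to 0.022). With MHs against controls they were Il6r (-0.032 with a slide-set block, from -0.103 to 0.185 with a sample left out), Socs3 (from -0.22 to 0.027) and Lifr (from -0.591 to 1.024). With BM-MCs against MHs they were Il1r1 (-0.034 with median scaling, from -0.154 to 0.481 with a sample left out), Il6r (0.07 with a slide-set block) and Lifr (0.13 with the replicate block, from -0.81 to 0.805 with a sample left out). The cause was not tested.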
